A study of Mus musculus with 8 samples.

Results

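Staggerer mouse embryonic fibroblasts were set against wild type ones after 12 h of doxorubicin, on 4 of the 8 arrays of the study, 2 for each genotype. Probes above background were kept, and the brightest probe of a gene stood for it. This left 9340 entries called genes here, of which 715 are probes with no symbol. The groups were staggerer cells with doxorubicin, wild type cells with doxorubicin, staggerer cells left untreated and wild type cells left untreated, with 2 arrays for each. Both genotypes were labelled as C57BL/6J embryonic fibroblasts and were grown in DMEM with glutamine and serum, and neither the doxorubicin dose nor the age of the embryos was given in the labels. The study's title asks how RORα alters gene expression in these cells with and without DNA damage.

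Staggerer is a mouse mutation that removes part of the gene Rora, which encodes the nuclear receptor RORα. RORα binds short AGGTCA sites preceded by an A/T-rich stretch and activates genes of the circadian clock and of lipid metabolism, at sites where the repressors REV-ERBα and REV-ERBβ compete with it. Doxorubicin is an anthracycline that traps topoisomerase II on cut DNA, and the breaks activate p53, which switches on genes of cell cycle arrest, DNA repair and cell death. Embryonic fibroblasts are connective tissue cells that secrete collagen, elastic fibres and the enzymes that remodel them.

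Values are given as normalized signal on the log2 scale, in the order of array 1 and array 2, and are comparable between arrays for a gene but not between genes. A difference is staggerer minus wild type on the same scale, with the standard error (SE) and the adjusted p of limma, from 2 arrays per group. Whether these 2 arrays were separate cultures is not stated, so a p-value here measures the spread between arrays only, and that spread may be technical. The number of embryos or cell isolates behind each genotype is not stated either, so genotype and isolate cannot be told apart. In bulk RNA, fewer cells of a type and less RNA per cell cannot be told apart either.

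The staggerer doxorubicin arrays stood apart. They had 9576 and 9246 detected probes, against 11341 and 11572 on the wild type doxorubicin arrays, 10986 and 10942 on the staggerer untreated arrays and 11154 and 11059 on the wild type untreated arrays. Their median background-corrected signal was 7.64 and 7.55, against 8.69 and 8.66, 8.62 and 8.61, and 9.11 and 8.85 in the same order. The signal that the brightest 1% of probes reach was not lower, at 14.76 and 14.72 on the staggerer arrays against 14.50 and 14.50 on the wild type arrays after doxorubicin. The correlation across genes between the 2 arrays of a group was 0.983 in staggerer cells with doxorubicin and 0.994 in wild type cells with doxorubicin. The part of this lower signal in the results was not tested. Medians of gene lists are therefore given relative to the median of all genes, with their range over 5 scalings of the arrays. Where a gene was below background on both arrays of one genotype, only a bound is known, written as at least N-fold. An adjusted p printed beside a bound tests the fitted difference and not the bound.

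**Figure D1:**
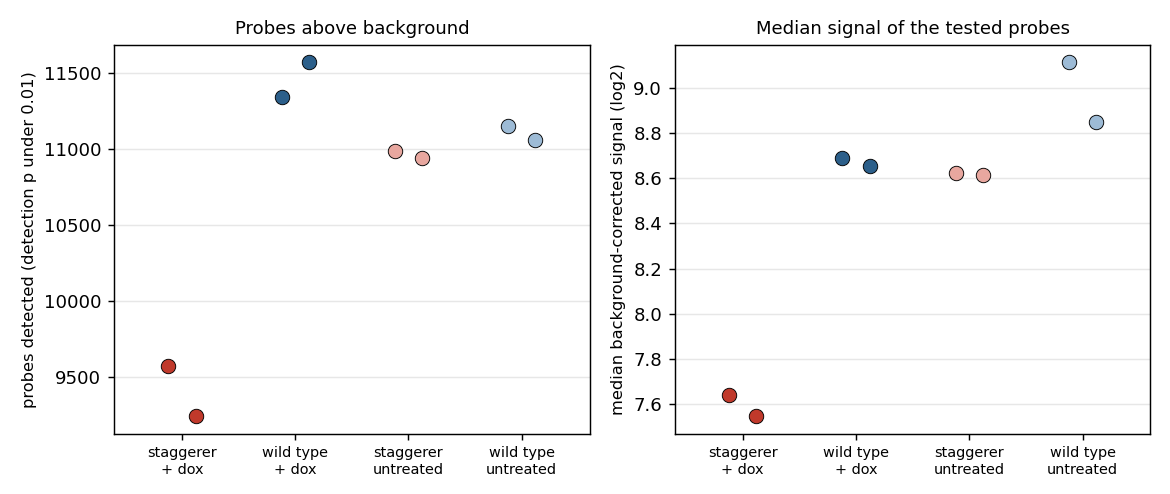
Detected probes (left, number with a detection p under 0.01) and median signal over tested probes after background correction (right, log2) on each of the 8 arrays, 1 point per array. The 2 staggerer doxorubicin arrays lie below the other 6 in both panels.

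After doxorubicin, 6776 of 9340 genes differed between the genotypes at an adjusted p under 0.05, which is 72.5% of them. In staggerer cells 3039 genes were higher (32.5%) and 3737 were lower (40.0%), and 4087 of the differences were at least 2-fold. In untreated cells 1210 genes differed (13.0%), 624 higher (6.68%) and 586 lower (6.27%), and 472 of these by at least 2-fold. The median absolute difference over all genes was 0.87 after doxorubicin and 0.23 in untreated cells. The test of whether the difference itself changed with doxorubicin, the interaction, called 5526 genes (59.2%), with 2484 shifted towards staggerer (26.6%) and 3042 towards wild type (32.6%).

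The direction of the whole set depended on the scaling of the arrays. Of the genes called after doxorubicin 44.8% were higher in staggerer with quantile normalization, 59.2% with median centring and 20.1% with no between-array normalization. The all-gene median difference in these settings was -0.14, 0.28 and -0.80. Detection also differed by direction. There were 1244 genes detected on both wild type arrays and neither staggerer array, 996 of them called lower, and 117 with the opposite pattern, each called higher. Among the 6674 genes detected on all 4 doxorubicin arrays, 2606 were higher and 2429 lower, with a median of 0.05. Of the fifth of genes with the highest mean signal, 34.2% were higher and 34.7% lower.

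Of the 1210 genes called in untreated cells, 981 were also called after doxorubicin, 747 in the same direction and 234 in the opposite one. They made up 81.1% of the untreated calls and 14.5% of the calls after doxorubicin. The genotype differences in the 2 conditions, which share no array, had a correlation of 0.33 across genes, given as a description.

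**Figure D2:**
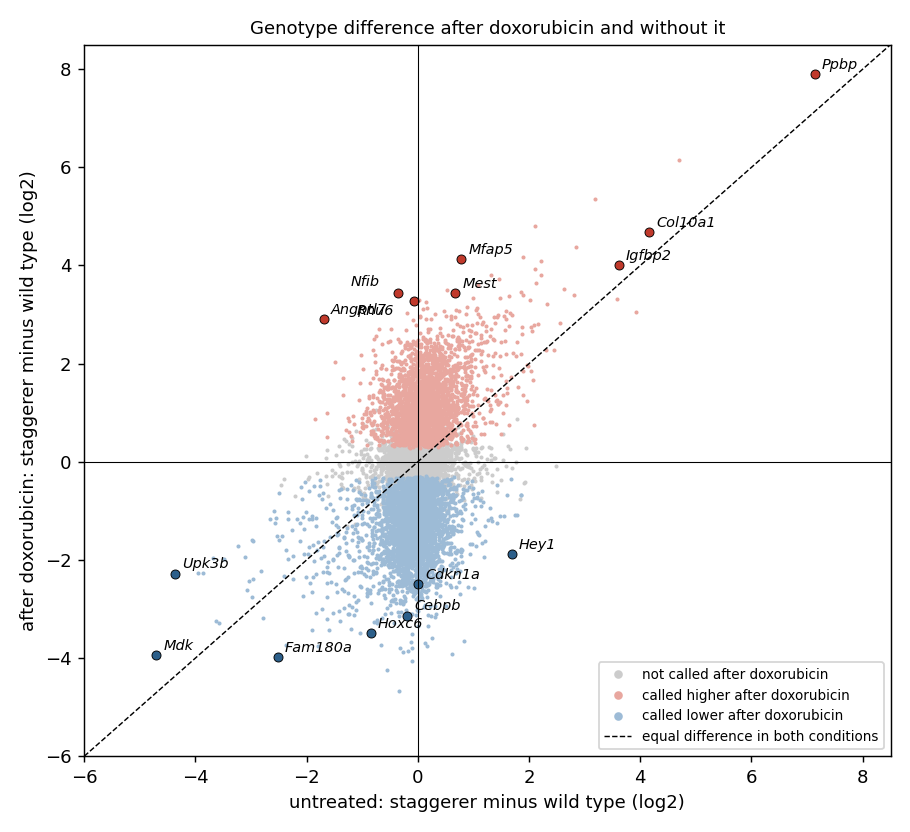
Genotype difference of each gene (staggerer minus wild type, log2) after doxorubicin (vertical axis) against the same in untreated cells (horizontal axis), 1 point per gene tested and with fitted values also for genes below background. Ppbp, Col10a1, Igfbp2 and Mdk lie near the dashed line of equal difference, while Cdkn1a, Cebpb, Nfib and Rnu6 lie near 0 in untreated cells and far from it after doxorubicin.

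Rora had 6.56 and 6.24 in staggerer cells and 7.99 and 7.92 in wild type cells after doxorubicin, and it was detected on 0 of 2 staggerer arrays and 2 of 2 wild type arrays. Both staggerer arrays lay below both wild type arrays, and Rora was at least 2.27-fold lower in staggerer (adjusted p = 0.000101). Without doxorubicin the values were 6.58 and 6.56 in staggerer cells and 7.72 and 8.08 in wild type cells, with detection on 2 of 2 arrays in each genotype. The lowest detected signal was 6.69 and 6.85 on the staggerer doxorubicin arrays and 6.11 and 6.13 on the staggerer untreated arrays. Detection of Rora in staggerer cells thus differed between the conditions at a similar level. The interaction was -0.23 ± 0.23 (adjusted p = 0.426). The files do not place the probe relative to the staggerer deletion, so this level does not check the genotype. Rorb was not among the genes tested, which had to be detected on 2 or more arrays.

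Genes of the circadian clock and known RORα targets were mostly lower in staggerer cells after doxorubicin. Of 41 genes in the list 18 passed the filter on low signal, and 1 was higher, 14 were lower and 3 did not pass the test, against 32.5% higher and 40.0% lower among all genes. Their median was -0.84 relative to all genes (-1.10 to -0.56 over the 5 scalings). The list holds Rora itself, which is 1 of the 14 lower genes. In untreated cells the list's median difference was -0.11, and the 1 gene that was lower was Rora. Where 5 or fewer genes of a list are named for going one way, here and in the lists that follow, they were chosen after their values were seen. Arntl, which encodes the clock activator BMAL1 and is a textbook RORα target, had 7.90 and 6.98 in staggerer cells and 9.03 and 8.96 in wild type cells. The 2 staggerer arrays were nearly 1 log2 unit apart but both lay below the wild type arrays (-1.56 ± 0.28, adjusted p = 0.0016). Bhlhe40, a repressor of clock genes, had 7.90 and 8.26 against 10.55 and 10.48, a difference of -2.43 ± 0.20 (adjusted p = 3.02e-05), and Nfil3, a repressor of D-box genes, had 9.16 and 9.42 against 11.40 and 11.33, a difference of -2.07 ± 0.14 (adjusted p = 1.67e-05). In both genes the pairs lay more than 1 log2 unit apart. The D-box activator gene Tef differed by -1.42 ± 0.12 and the deubiquitinase gene Usp2 by -1.29 ± 0.14, with adjusted p-values of 3.29e-05 and 0.000118. Nr1d1, the gene of REV-ERBα, was below background on both staggerer arrays and at least 2.21-fold lower (adjusted p = 0.000117), though another of its probes gave -0.23. Nr1d2, the gene of REV-ERBβ, differed by -0.61 ± 0.23 (adjusted p = 0.0447) and was detected on 1 of 2 staggerer arrays. That call was lost under most other settings, among them median centring (-0.29, adjusted p = 0.154). The 1 gene that was higher was Cyp7b1, an oxysterol hydroxylase and a RORα target in liver, with 8.61 and 8.95 in staggerer cells and 6.34 and 4.92 in wild type cells, where it was detected on 1 of 2 arrays (3.15 ± 0.40, adjusted p = 0.000232).

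The RORα core site TAGGTCA was searched on both strands of RefSeq promoter windows (GRCm38.p6, 250 bases before to 50 after a gene's start). It was found in 3 of the 14 clock and RORα target genes with a window (21.4%), namely Arntl, Nfil3 and the lipid droplet gene Plin2, whose difference did not pass (it was called lower with no between-array normalization, at -1.11), and in 2.24% of the 7017 tested genes with one. Of genes higher in staggerer 2.17% held it, and of genes lower in staggerer 2.41%. The windows of Arntl and Nfil3 are shown because both genes carry the site and were lower, with the site in capitals (in Nfil3 it lies on the opposite strand). The Arntl window, 1 of 2 in the table, is chr7:113207261-113207560 on the plus strand and that of Nfil3 is chr13:52980990-52981289 on the minus strand.
Arntl: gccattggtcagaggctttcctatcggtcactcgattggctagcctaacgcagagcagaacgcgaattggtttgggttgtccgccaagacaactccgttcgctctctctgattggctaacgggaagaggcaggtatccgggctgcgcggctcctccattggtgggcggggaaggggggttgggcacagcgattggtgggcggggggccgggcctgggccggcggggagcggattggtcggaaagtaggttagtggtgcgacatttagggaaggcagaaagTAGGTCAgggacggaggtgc
Nfil3: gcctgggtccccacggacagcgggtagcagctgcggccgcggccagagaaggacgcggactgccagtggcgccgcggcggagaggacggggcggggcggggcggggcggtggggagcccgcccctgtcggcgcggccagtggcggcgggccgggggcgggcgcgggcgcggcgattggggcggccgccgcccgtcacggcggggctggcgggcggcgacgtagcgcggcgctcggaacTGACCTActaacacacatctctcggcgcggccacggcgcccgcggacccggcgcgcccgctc
The match begins 30 bases after the annotated start in Arntl and 12 bases before it in Nfil3. It describes the letters of the window and says nothing of binding.

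Targets of p53 were lower in staggerer cells after doxorubicin. Of 46 genes of p53 feedback, arrest and stress response 38 passed the filter, and 27 were lower, 1 was higher and 10 did not reach the threshold. Their median was -1.0 relative to all genes (-1.26 to -0.72 over the 5 scalings). Among the 31 detected on all 4 arrays, 22 were lower and 1 was higher. Over the 38 genes 71.1% were lower and 2.63% higher, against 40.0% and 32.5% of all genes. Cdkn1a, the gene of the cell cycle inhibitor p21, had 12.25 and 12.24 in staggerer cells and 14.59 and 14.87 in wild type cells. The pairs were more than 2 log2 units apart (-2.49 ± 0.13, adjusted p = 9.15e-06), while in untreated cells Cdkn1a had 14.0 and 14.09 in staggerer and 14.08 and 14.0 in wild type (difference 0.00 ± 0.13 (adjusted p = 0.986)). Mdm2, the ubiquitin ligase that degrades p53, had 11.40 and 11.62 against 13.93 and 13.99 (-2.45 ± 0.14, adjusted p = 1.05e-05), and its untreated pairs overlapped, at 13.21 and 12.99 in staggerer cells and 12.91 and 13.07 in wild type cells. Ppm1d, the phosphatase that switches the damage signal off, had 8.74 and 9.06 against 11.32 and 11.39 (-2.45 ± 0.15, adjusted p = 1.17e-05). The scaffold gene of nuclear bodies, Pml, had 10.09 and 10.49 against 12.90 and 12.90 (-2.61 ± 0.16, adjusted p = 1.24e-05), and another Pml probe gave -0.82. Trp53inp1, a stress protein gene, differed by -2.20 ± 0.13 with -1.15 by another probe. Sfn, which encodes the mitosis inhibitor 14-3-3σ, was below background on both staggerer arrays and at least 2.67-fold lower (adjusted p = 1.05e-05). Usp7, the deubiquitinase of MDM2 and p53, differed by -1.01 ± 0.17 (adjusted p = 0.00117) and Ccng1, a cyclin that recruits a phosphatase to MDM2, by -0.52 ± 0.14 (adjusted p = 0.0111). With median centring Ccng1 was higher in staggerer, by 0.74, and without the first wild type doxorubicin array its call was lost (-0.37, adjusted p = 0.0781). The 1 gene higher in staggerer was the adenylate kinase gene Ak1 (1.10 ± 0.17, adjusted p = 0.000607). For 23 of the 38 genes the interaction was called towards wild type and for 0 towards staggerer, against 32.6% and 26.6% of all genes.

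The p53 targets of cell death showed the same direction, with 11 of 14 tested genes lower and 2 higher, out of 18 in the list, and a median of -0.83 relative to all genes (-1.06 to -0.72 over the 5 scalings). The shares were 78.6% lower and 14.3% higher, against 40.0% and 32.5% of all genes. In untreated cells 3 of the 14 genes were higher in staggerer and 2 lower. Bbc3, the gene of the pro-apoptotic protein PUMA, had 6.84 and 7.40 in staggerer cells and 10.33 and 10.49 in wild type cells. Its staggerer values were the lower by about 3 log2 units (-3.29 ± 0.19, adjusted p = 1.07e-05), and a second, dimmer probe gave -0.40. Bbc3 was also lower in untreated staggerer cells (-0.74 ± 0.19, adjusted p = 0.0457), and its interaction was -2.55 ± 0.27 (adjusted p = 0.000309). Apaf1, which forms the apoptosome, had 9.10 and 9.29 against 11.50 and 11.72 (-2.42 ± 0.14, adjusted p = 1.05e-05). The death receptor gene Fas had 10.59 and 10.51 against 12.07 and 12.04 (-1.50 ± 0.14, adjusted p = 5.77e-05), whereas in untreated cells its staggerer values of 11.29 and 11.10 were above the wild type values of 9.94 and 10.24 (1.10 ± 0.14, adjusted p = 0.00247). That reversal was called in the interaction (-2.61 ± 0.20, adjusted p = 0.000164). Pmaip1, the gene of NOXA, had 10.61 and 10.83 against 11.39 and 11.41, a difference of -0.68 ± 0.14 (adjusted p = 0.00338), and it too was higher in untreated staggerer cells (0.69 ± 0.14, adjusted p = 0.0204). With median centring the Pmaip1 difference after doxorubicin was -0.28 and did not pass (adjusted p = 0.118). Casp1, the inflammatory caspase gene, was below background on both staggerer arrays and at least 4.15-fold lower (adjusted p = 4.99e-06), and Dapk1, a death kinase gene, at least 2.36-fold lower. Casp1 was also lower in untreated staggerer cells, again below background on both arrays (fitted difference -1.79 ± 0.14, adjusted p = 3e-04). The 2 that were higher after doxorubicin were the TRAIL receptor gene Tnfrsf10b (1.33 ± 0.19, adjusted p = 0.000392) and Igfbp3, whose protein binds insulin-like growth factors (1.15 ± 0.14, adjusted p = 0.000169). The Igfbp3 call was lost with no between-array normalization (0.22, adjusted p = 0.267).

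In the BCL2 family 3 of 12 tested genes were higher and 5 lower, or 25% and 41.7%, against 32.5% and 40.0% of all genes. Mcl1, the short-lived survival protein gene, had 9.27 and 9.54 in staggerer cells and 11.84 and 11.74 in wild type cells, a difference of -2.38 ± 0.13 (adjusted p = 1.04e-05). The survival gene Bcl2l1 (BCL-XL, -1.87 ± 0.21) and the pro-death gene Bcl2l11 (BIM, -1.76 ± 0.17) were lower too, while the survival gene Bcl2l2 was higher (0.97 ± 0.11), as were Bok and Bcl2l12. The calls of Bok (0.12, adjusted p = 0.619) and Bcl2l12 (0.05, adjusted p = 0.814) were lost with no between-array normalization. Bid and Bcl2l13 were the other lower ones, and Bcl2l13 lost its call without the second wild type doxorubicin array (-0.36, adjusted p = 0.0915) or the first staggerer one (-0.37, adjusted p = 0.0549). The list's median of 0.10 relative to all genes (0.04 to 0.21 over the 5 scalings) turned to -0.30 among genes detected on all 4 doxorubicin arrays.

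**Figure D3:**
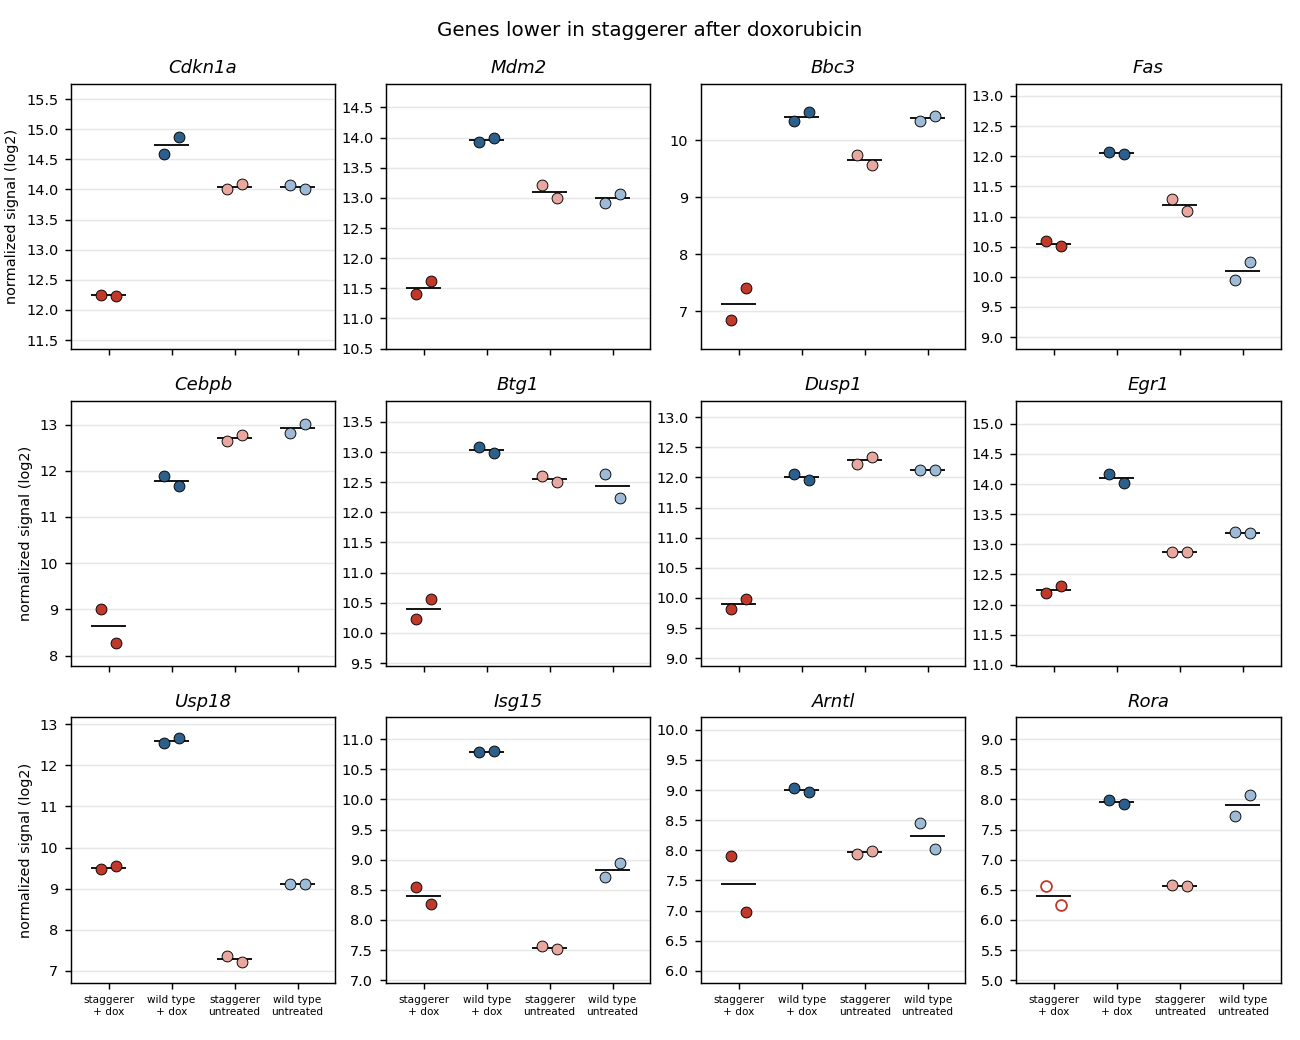
Normalized signal (log2) of 12 genes lower in staggerer cells after doxorubicin, by group, with 1 point per array and a line at the mean of the 2 arrays; open points are groups in which the gene was not detected on both arrays. In each panel both staggerer doxorubicin points lie below both wild type doxorubicin points, and for Cdkn1a, Mdm2, Btg1 and Dusp1 the untreated groups differ by under 0.3.

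Immediate early genes and growth-signal feedback genes were mostly lower in staggerer cells. Of 32 immediate early genes 23 passed the filter, and 16 were lower and 2 higher, with a median of -0.96 relative to all genes (-1.22 to -0.93 over the 5 scalings). That is 69.6% lower and 8.7% higher, against 40.0% and 32.5% of all genes. Egr1, a zinc finger factor induced by serum, had 12.20 and 12.30 in staggerer cells and 14.17 and 14.02 in wild type cells (-1.85 ± 0.12, adjusted p = 1.26e-05). Junb, an AP-1 subunit gene, had 8.97 and 8.84 against 10.83 and 10.87 (-1.95 ± 0.11, adjusted p = 1.05e-05), and Ier3, a survival gene, had 9.87 and 10.25 against 11.98 and 11.98 (-1.92 ± 0.15, adjusted p = 2.65e-05). In each of these the staggerer pair lay more than 1 log2 unit below the wild type pair. The list also holds Id1, an inhibitor of differentiation factors (-1.72 ± 0.12), and the transcription factor gene Csrnp1 (-2.04 ± 0.13). The 2 genes higher in staggerer were Maff (0.57 ± 0.13, adjusted p = 0.00533) and Arc (0.43 ± 0.13, adjusted p = 0.017), and both were lower with no between-array normalization, at -0.48 and -0.66. Arc also lost its call without the first wild type doxorubicin array (0.30, adjusted p = 0.113). Of the 10 tested Krüppel-like factor genes 9 were lower and 0 higher (median -1.20 relative to all genes, -1.43 to -0.79 over the scalings). That is 90% lower and 0% higher, against 40.0% and 32.5% of all genes. Klf5, which drives proliferation, had 9.37 and 9.70 against 11.82 and 11.82 (-2.29 ± 0.17, adjusted p = 1.88e-05), and Klf6 and Klf9 differed by -1.53 ± 0.11 and -1.53 ± 0.13. Klf2 was below background on both staggerer arrays and at least 1.82-fold lower (adjusted p = 1.26e-05).

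MAP kinase phosphatase and Sprouty genes, which dampen growth factor signals, were lower in 11 of 13 cases and higher in 0 (median -1.33 relative to all genes, -1.72 to -1.03 over the scalings). These are 84.6% and 0%, against 40.0% and 32.5% of all genes. Dusp1 had 9.81 and 9.99 in staggerer cells and 12.05 and 11.96 in wild type cells (-2.10 ± 0.12, adjusted p = 1.06e-05). Errfi1, an inhibitor of the EGF receptor, had 9.60 and 9.80 against 12.49 and 12.38 (-2.73 ± 0.14, adjusted p = 8.83e-06). Dusp7 differed by -2.40 ± 0.13 and Dusp4 by -2.60 ± 0.12, with -1.15 by another Dusp4 probe. Of the 15 NF-κB subunit and feedback genes 10 were lower and 3 higher (median -0.93 relative to all genes, -0.93 to -0.34 over the scalings). These are 66.7% and 20%, against 40.0% and 32.5% of all genes. Nfkbia, which encodes the inhibitor IκBα, had 7.17 and 6.96 against 9.55 and 9.29 (-2.36 ± 0.16, adjusted p = 1.56e-05), and Rela, the p65 subunit gene, differed by -1.60 ± 0.17. The 3 higher ones were Nfkbib, Ikbkb and Ikbkg, and with no between-array normalization Ikbkb (-0.66) and Ikbkg (-0.46) were lower. Nfkbib lost its call in that setting (0.02, adjusted p = 0.951), without the second wild type doxorubicin array (0.55, adjusted p = 0.0574) and without the first staggerer one (0.82, adjusted p = 0.0555). Ikbkb lost its own without either wild type doxorubicin array (0.44 and 0.40) or the first staggerer one (0.33), with adjusted p-values from 0.0551 to 0.0767. Among the 9 of these genes detected on all 4 arrays 3 were higher and 4 lower, with a median difference of 0.07, so the shift of the list was not seen there. Btg1, an antiproliferative gene of message deadenylation, had 10.23 and 10.56 in staggerer cells and 13.08 and 12.98 in wild type cells (-2.63 ± 0.17, adjusted p = 1.4e-05). Zfp36l1, which directs decay of AU-rich messages, had 11.21 and 11.14 against 13.40 and 13.42 (-2.24 ± 0.11, adjusted p = 8.83e-06), and its other probes gave -0.43 and -1.70. The wider list of message decay genes had 8 higher and 14 lower of 36 (22.2% and 38.9%, against 32.5% and 40.0% of all genes).

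Cebpb, a factor of inflammation and fat cell formation, was among the genes with the largest differences. It had 9.0 and 8.28 in staggerer cells and 11.89 and 11.67 in wild type cells after doxorubicin, a difference of -3.14 ± 0.23 (adjusted p = 2.03e-05), and 12.65 and 12.77 against 12.81 and 13.02 in untreated cells. The untreated pairs did not overlap but lay within 0.4 of each other, and the interaction was -2.94 ± 0.33 (adjusted p = 0.000361). Cebpa was below background on both staggerer arrays and at least 2.1-fold lower (adjusted p = 1.33e-05). Pparg, the master factor of fat cells, went the other way, at 8.93 and 8.71 in staggerer cells and 7.51 and 7.40 in wild type cells (1.37 ± 0.12, adjusted p = 4.81e-05), as it did in untreated cells (1.89 ± 0.12, adjusted p = 0.000142). Another Pparg probe gave 0.29 after doxorubicin, and with no between-array normalization the difference was 0.30 and did not pass (adjusted p = 0.161).

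Interferon-stimulated genes were lower in staggerer cells after doxorubicin. Of 52 genes in the list 29 passed the filter, with 22 lower, 4 higher and 3 not passing, and a median of -1.08 relative to all genes (-1.08 to -0.58 over the 5 scalings). The shares were 75.9% lower and 13.8% higher, against 40.0% and 32.5% of all genes. With the 29 genes at their bounds where they were below background, the median difference itself was -0.78, against -1.22 by the fitted values. Among the 18 genes detected on all 4 arrays, 11 were lower and 4 higher. In untreated cells 12 of the 29 genes were already lower in staggerer and 1 was higher, with a median difference of -0.41, against 6.27% lower and 6.68% higher among all genes. The ISRE, the site of the interferon-activated factor ISGF3, was searched as GAAANNGAAA on both strands of the promoter windows. It was found in 13 of 21 of these genes with a window (61.9%) and in 3.62% of the tested genes with one. Of genes higher in staggerer 3.72% held it and of genes lower in staggerer 3.73%. The windows of Isg15, Rsad2 and Igtp are shown because each holds the motif and was lower in staggerer, with matches in capitals. In Isg15 3 matches overlap, and in Rsad2 the match lies on the opposite strand. They lie at chr4:156200769-156201068 on the minus strand, chr12:26456403-26456702 on the minus strand and chr11:58199306-58199605 on the plus strand (RefSeq, GRCm38.p6).
Isg15: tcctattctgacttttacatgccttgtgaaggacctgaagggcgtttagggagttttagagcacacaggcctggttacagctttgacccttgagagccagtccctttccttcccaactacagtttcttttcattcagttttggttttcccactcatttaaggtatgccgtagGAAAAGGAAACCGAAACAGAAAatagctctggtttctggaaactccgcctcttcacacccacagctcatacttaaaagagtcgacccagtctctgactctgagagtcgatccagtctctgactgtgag
Rsad2: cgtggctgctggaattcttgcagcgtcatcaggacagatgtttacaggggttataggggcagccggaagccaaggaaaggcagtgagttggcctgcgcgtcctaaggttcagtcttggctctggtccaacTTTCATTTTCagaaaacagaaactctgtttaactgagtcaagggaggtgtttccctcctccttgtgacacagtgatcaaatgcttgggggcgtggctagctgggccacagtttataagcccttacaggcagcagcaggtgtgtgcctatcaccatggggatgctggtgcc
Igtp: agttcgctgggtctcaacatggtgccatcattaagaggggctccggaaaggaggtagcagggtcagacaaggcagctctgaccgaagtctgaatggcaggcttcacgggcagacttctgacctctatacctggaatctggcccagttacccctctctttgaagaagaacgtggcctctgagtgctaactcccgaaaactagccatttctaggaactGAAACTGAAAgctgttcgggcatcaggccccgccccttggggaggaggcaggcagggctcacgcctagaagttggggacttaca
The first match begins 78 bases before the annotated start in Isg15, 120 in Rsad2 and 34 in Igtp.

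Usp18, the protease that removes ISG15 from proteins, had 9.47 and 9.55 in staggerer cells and 12.54 and 12.67 in wild type cells (-3.09 ± 0.12, adjusted p = 4.99e-06). Isg15, the ubiquitin-like modifier, had 8.54 and 8.27 against 10.78 and 10.80 (-2.39 ± 0.14, adjusted p = 1.1e-05), and Ifi35 had 7.78 and 8.14 against 10.27 and 10.24 (-2.30 ± 0.15, adjusted p = 1.35e-05). In each case the staggerer pair lay at least 2 log2 units below the wild type pair. Parp14, a mono-ADP-ribosyltransferase gene, had 6.73 and 6.75 against 10.14 and 10.14 and was detected on 1 of 2 staggerer arrays (-3.40 ± 0.13, adjusted p = 4.99e-06). The GTPase gene Irgm2, one of the largest differences of all, had 6.72 and 6.87 against 10.19 and 10.36 (-3.48 ± 0.13, adjusted p = 4.99e-06). Below background on both staggerer arrays were Oasl2, a relative of the 2′-5′ oligoadenylate synthetases, at least 7.71-fold lower, the GTPase gene Igtp, at least 5.73-fold, and the antiviral gene Rsad2, at least 2.15-fold, with adjusted p-values from 8.83e-06 to 1.9e-05. The 4 that were higher were Ifit2 (0.97 ± 0.18), Zbp1 (0.79 ± 0.28), Ly6e (0.78 ± 0.13) and Ifi27 (0.58 ± 0.12), and with no between-array normalization Ifit2 and Zbp1 were lower in staggerer, at -0.08 and -0.22, and Ly6e (0.02, adjusted p = 0.945) and Ifi27 (0.39, adjusted p = 0.0651) lost their calls. None of the 4 higher calls thus held in that setting. Zbp1 also lost its call without the second staggerer doxorubicin array (0.43, adjusted p = 0.166) or the second wild type one (0.49, adjusted p = 0.206). Usp18 and Isg15 were also lower in untreated staggerer cells, with differences of -1.83 ± 0.12 (adjusted p = 0.000142) and -1.29 ± 0.14 (adjusted p = 0.0012), and the interaction was called for both. Genes of MHC class I antigen processing were more often higher, 9 of 16, than lower, 3 (median 0.68 relative to all genes, 0.49 to 0.93 over the scalings). These are 56.2% and 18.8%, against 32.5% and 40.0% of all genes. The lower ones were the peptide transporter gene Tap1, the immunoproteasome gene Psmb9 and Nlrc5. Tapbp, the tapasin gene, had 9.62 and 9.81 against 7.64 and 7.77 (2.01 ± 0.17, adjusted p = 3.56e-05, 0.74 by another probe) and H2-M3 differed by 1.87 ± 0.14, while Nlrc5, which activates the MHC class I genes, had 6.79 and 7.01 against 9.11 and 9.44 (-2.38 ± 0.19, adjusted p = 2.88e-05).

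Markers of macrophages, immune cells that can persist in such cultures, were lower in staggerer cells in both conditions. Of 19 markers on the array 12 were tested, and their summed signal was 13.04 and 13.17 in staggerer cells and 14.40 and 14.40 in wild type cells after doxorubicin, on the log2 scale. In untreated cells it was 12.29 and 12.35 in staggerer and 14.52 and 14.42 in wild type. After doxorubicin 8 were lower and 0 higher, among them Laptm5 (-2.23 ± 0.16), Cd14 (-1.24 ± 0.13) and the lysozyme genes Lyz1 (-1.25 ± 0.13) and Lyz2 (-1.12 ± 0.12), which are near-identical copies. The Lyz1 call was lost with median centring (-0.32, adjusted p = 0.0593). The defining markers Ptprc, Itgam, Spi1, Aif1, Cx3cr1, Fcgr3 and Tyrobp were above background on at most 1 of the 8 arrays. The part of these cells in the difference of interferon-stimulated genes was not tested. The interaction was called towards staggerer for 8 of the 12 macrophage markers and towards wild type for 0, against 26.6% and 32.6% of all genes. After doxorubicin 66.7% of these markers were lower and 0% higher, against 40.0% and 32.5% of all genes. Of 11 tested epithelial and mesothelial markers 6 were lower after doxorubicin, 1, Krt8, was higher (0.90 ± 0.24, adjusted p = 0.0107) and 4 did not pass, and in untreated cells 8 were lower and 0 higher. The Krt8 call was lost with no between-array normalization (0.05, adjusted p = 0.857) and without the first wild type doxorubicin array (0.58, adjusted p = 0.0669). Of these 11 markers 54.5% were lower and 9.09% higher after doxorubicin, against 40.0% and 32.5% of all genes. The markers' summed signal after doxorubicin was 10.30 and 10.19 in staggerer cells and 12.16 and 12.05 in wild type cells. Among the lower ones, Krt14 was at least 4.11-fold lower and Upk3b had 7.78 and 7.57 against 10.04 and 9.87 (-2.28 ± 0.15, adjusted p = 1.38e-05), while Cdh1, Krt5 and Cldn4 were below background. Their part in the other results was not tested either. The fibroblast label was borne out by 19 of 20 fibroblast markers on the array above background, with summed signals of 17.66 and 17.70 in staggerer cells and 17.33 and 17.37 in wild type cells after doxorubicin. Postn was below background.

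Contractile and elastic fibre genes were higher in staggerer cells after doxorubicin, with the largest positive list medians among lists of at least 10 tested genes. Of 14 smooth muscle contractile genes 11 were higher and 2 lower (median 1.29 relative to all genes, 1.21 to 1.81 over the scalings). These are 78.6% and 14.3%, against 32.5% and 40.0% of all genes. Myh11, the smooth muscle myosin heavy chain, had 9.65 and 9.37 in staggerer cells and 6.59 and 6.39 in wild type cells (3.02 ± 0.16, adjusted p = 9.15e-06). Mylk, the kinase that activates that myosin, had 10.16 and 10.02 against 7.76 and 7.39 (2.51 ± 0.16, adjusted p = 1.39e-05), and its untreated values of 9.64 and 9.37 in staggerer cells lay below the 10.26 and 10.31 of wild type cells. Lmod1, an actin nucleator gene, had 8.86 and 8.93 against 6.49 and 6.59 (2.35 ± 0.13, adjusted p = 9.15e-06). Cnn2, a calponin gene, differed by 2.37 ± 0.28, with 3.70 by another probe. The 2 lower genes were Smtn and the muscle filament gene Des, with Des at 8.86 and 9.22 against 10.62 and 10.65 (-1.59 ± 0.17, adjusted p = 8.75e-05). Of 13 elastic fibre and microfibril genes 8 were higher and 2, Eln and Mfap4, lower (median 1.20 relative to all genes, 1.01 to 1.24 over the scalings). That is 61.5% higher and 15.4% lower, against the same all-gene shares. Mfap5, a microfibril protein gene, had 10.65 and 10.68 against 6.45 and 6.61 (4.13 ± 0.12, adjusted p = 3.48e-06), and the latent TGF-β binding protein genes Ltbp1, Ltbp3 and Ltbp4 differed by 1.27 ± 0.15, 0.96 ± 0.12 and 1.29 ± 0.15, with 2.11 by another Ltbp3 probe. The Ltbp4 call was lost with no between-array normalization (0.28, adjusted p = 0.177). Elastin itself (Eln) was below background on both staggerer doxorubicin arrays and at least 1.29-fold lower (adjusted p = 4.56e-05). It was also lower in untreated staggerer cells (-2.96 ± 0.14, adjusted p = 4.14e-05), and its interaction was 1.36 ± 0.20 (adjusted p = 0.00113).

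Collagens and the enzymes that finish them were higher more often than lower. Of 21 collagen genes 10 were higher and 3, Col18a1, Col27a1 and Col9a2, lower (median 0.40 relative to all genes, 0.20 to 0.66 over the scalings), and of 17 collagen maturation genes 11 were higher and 1, Plod2, lower (median 0.67 relative to all genes, 0.55 to 1.17 over the scalings). The collagen shares were 47.6% higher and 14.3% lower and the maturation shares 64.7% and 5.88%, against 32.5% and 40.0% of all genes. Col10a1, a short-chain collagen of growth plate cartilage, had 11.49 and 11.75 in staggerer cells and 7.09 and 6.79 in wild type cells (4.68 ± 0.20, adjusted p = 6.58e-06). Its untreated difference was 4.16 ± 0.20 (adjusted p = 3.93e-05), and the interaction was 0.52 ± 0.28 (adjusted p = 0.146). Col6a2, a microfibrillar collagen gene, had 12.22 and 11.82 against 10.02 and 10.14 (1.94 ± 0.22, adjusted p = 0.00013), and the type I chain gene Col1a2 differed by 0.93 ± 0.13. P4ha3, a prolyl hydroxylase gene, had 8.84 and 8.65 against 6.46 and 7.10 (1.96 ± 0.22, adjusted p = 0.000116), and Serpinh1, the collagen chaperone gene, differed by 1.35 ± 0.18. Plod2, a lysyl hydroxylase of cross-linking, was lower (-1.11 ± 0.13), as was Col18a1, the source of endostatin (-1.22 ± 0.12). Lum and Ogn, small proteoglycans that regulate fibril width, were higher, Lum at 10.73 and 10.81 against 8.12 and 8.04 (2.69 ± 0.11, adjusted p = 6.58e-06) and Ogn by 1.88 ± 0.14, with 3.76 and 3.55 by other Ogn probes. Their list, which also holds versican and the hyaluronan synthases, was split. It had 4 higher (Fmod and Prelp beside these) and 4 lower of 10, and the lower ones were Dcn, Vcan, Has2 and Has3. That is 40% each way, against 32.5% higher and 40.0% lower among all genes. Has3, a hyaluronan synthase gene, was at least 2.08-fold lower and Has2 at least 1.98-fold.

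Matrix proteases and their inhibitors were higher in 12 of 19 cases and lower in 2, Mmp17 and Mmp9 (median 0.89 relative to all genes, 0.82 to 1.42 over the scalings). These are 63.2% and 10.5%, against 32.5% and 40.0% of all genes. Mmp9 lost its call with median centring (-0.02, adjusted p = 0.898) and, at -0.21 (adjusted p = 0.0718) in both, without background correction and in the authors' deposited table of normalized values. Mmp17 lost its own without the second wild type doxorubicin array (-0.98, adjusted p = 0.0689). Adamts5, an aggrecan-cleaving protease gene, had 10.66 and 10.53 in staggerer cells and 7.54 and 7.41 in wild type cells (3.12 ± 0.13, adjusted p = 6.12e-06), with untreated pairs of 10.18 and 10.37 in staggerer cells and 10.16 and 10.22 in wild type cells that overlapped. Mmp3, the stromelysin gene, had 10.72 and 10.64 against 7.72 and 8.02 (2.81 ± 0.15, adjusted p = 9.15e-06), and Mmp13, a collagenase gene, 11.83 and 11.93 against 10.24 and 10.21 (1.66 ± 0.12, adjusted p = 1.89e-05). Both were also higher in untreated staggerer cells, by 2.16 ± 0.15 and 0.86 ± 0.12. Plaur, the urokinase receptor gene, differed by 1.84 ± 0.11, and the lysosomal collagen protease gene Ctsk by 2.18 ± 0.12. In the CCN family of matricellular proteins Ccn5 was higher, at 13.15 and 13.13 against 9.57 and 9.27 (3.72 ± 0.16, adjusted p = 6.58e-06), and Ccn1, a YAP target, was lower, at 7.89 and 7.54 against 9.69 and 9.54 (-1.91 ± 0.18, adjusted p = 6.13e-05). Other Ccn1 probes gave -0.71 and -2.11.

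**Figure D4:**
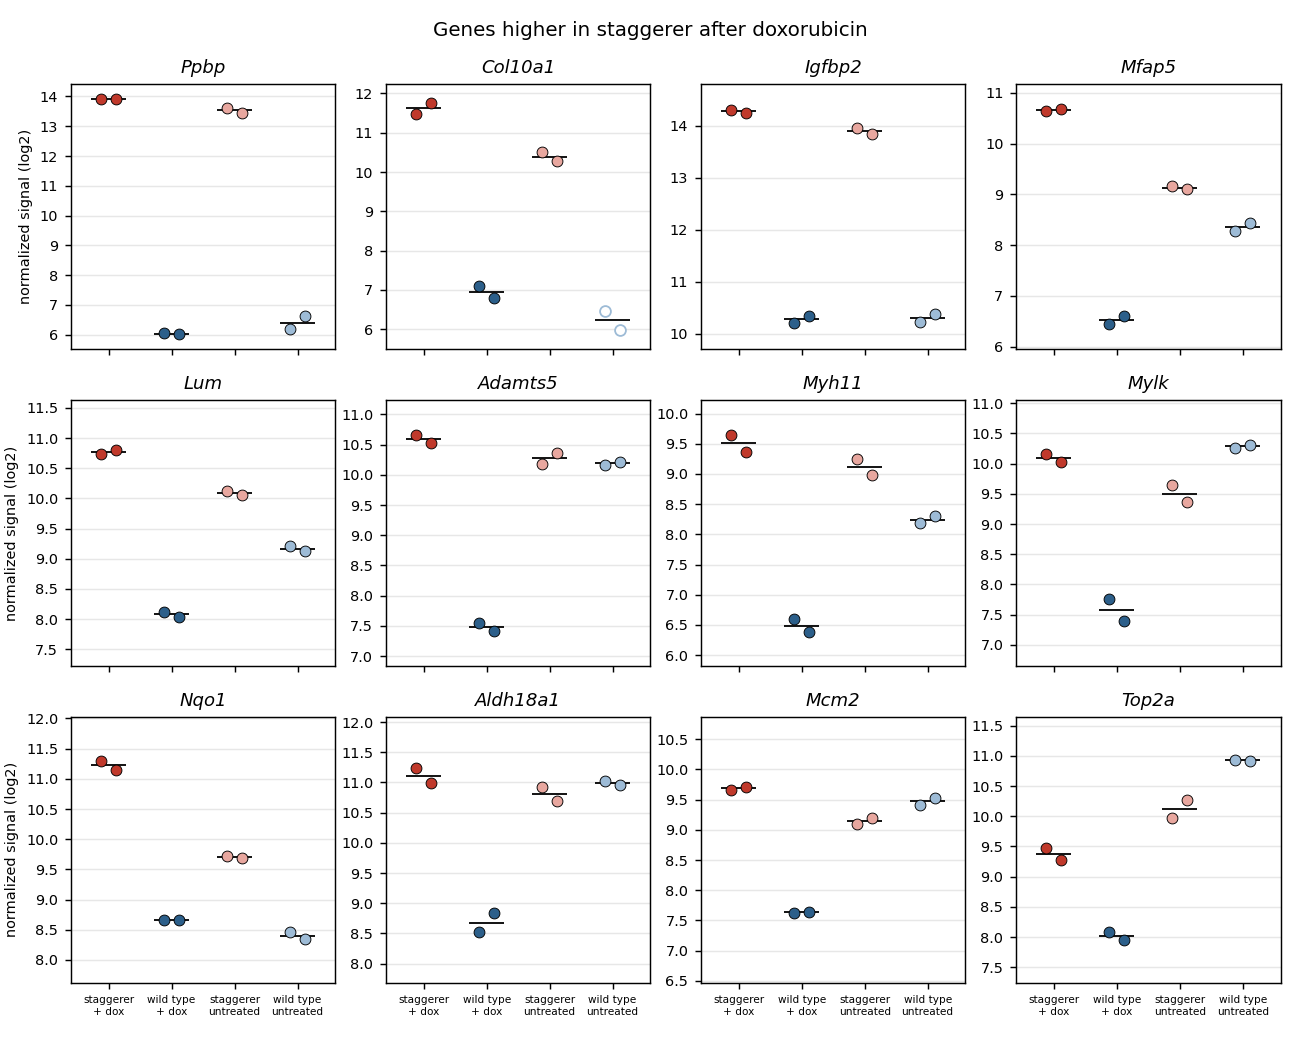
Normalized signal (log2) of 12 genes higher in staggerer cells after doxorubicin, drawn as in the plot of the lower genes. Both staggerer doxorubicin points lie above both wild type doxorubicin points in each panel; Ppbp, Col10a1 and Igfbp2 are apart by genotype in untreated cells as well, while for Mylk, Mcm2 and Top2a the untreated staggerer points lie below the untreated wild type points.

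The largest positive difference of all was that of Ppbp, a platelet and stromal CXC chemokine gene. It had 13.93 and 13.92 in staggerer cells and 6.05 and 6.01 in wild type cells after doxorubicin (7.90 ± 0.16, adjusted p = 1.13e-06), and 13.62 and 13.46 against 6.19 and 6.62 in untreated cells. Of other CXC chemokine genes, Cxcl15 had 11.92 and 11.85 against 5.39 and 6.09 (6.14 ± 0.24, adjusted p = 5.32e-06) and was detected on 1 of 2 wild type arrays, and Cxcl5 was at least 3.28-fold higher. Cxcl12, the stromal chemokine that retains blood stem cells, had 13.36 and 13.54 against 11.80 and 11.55 (1.78 ± 0.14, adjusted p = 2.67e-05), with 3.05 and 3.01 by its other probes, and was lower in untreated staggerer cells (-0.75 ± 0.14, adjusted p = 0.0135). Over the chemokine and cytokine list 11 of 23 were higher and 9 lower (median 0.39 relative to all genes, 0.16 to 0.39 over the scalings). These are 47.8% and 39.1%, against 32.5% and 40.0% of all genes. Igfbp2, an insulin-like growth factor carrier gene, had 14.31 and 14.25 against 10.20 and 10.35 (4.0 ± 0.12, adjusted p = 3.74e-06), and Igfbp4 differed by 2.45 ± 0.16. Igf1r, the receptor gene, was higher (1.71 ± 0.24, adjusted p = 0.000444), and Irs2, its adaptor, lower, at 6.56 and 7.54 against 9.70 and 9.65 with detection on 1 of 2 staggerer arrays (-2.62 ± 0.29, adjusted p = 0.000117).

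Other genes with large positive differences came from several tissues. Stmn2, a microtubule regulator of neurons, had 10.33 and 9.98 in staggerer cells and 6.02 and 5.93 in wild type cells (4.18 ± 0.15, adjusted p = 4.99e-06), and Map2, a dendrite protein gene, 9.88 and 9.59 against 7.40 and 7.15 (2.46 ± 0.15, adjusted p = 1.26e-05). Of 27 neural markers on the array only 9 were tested, 4 of them higher (Stmn2, Map2, Ncam1 and Gap43) and 2 lower (Gbx2 and Pou3f1), and Tubb3, Dcx, Rbfox3 and Gfap were above background on at most 1 of the 8 arrays. The Gap43 call was lost with no between-array normalization (0.25, adjusted p = 0.445). Myom1, a sarcomere protein gene, differed by 3.93 ± 0.17 (adjusted p = 6.58e-06), the adhesion gene Cdh13 by 3.65 ± 0.18 (adjusted p = 8.61e-06) and the matrix gene Abi3bp by 3.52 ± 0.16 (adjusted p = 7.85e-06), where other probes gave 2.61 for Cdh13 and 1.97 for Abi3bp. Maob, a monoamine oxidase gene on the X chromosome, had 11.01 and 10.85 against 7.53 and 7.42 (3.45 ± 0.13, adjusted p = 4.99e-06). Mest, an imprinted growth gene, had 12.24 and 12.63 against 8.98 and 9.01 (3.44 ± 0.17, adjusted p = 8.83e-06), with untreated values of 11.92 and 11.86 in staggerer cells and 11.38 and 11.06 in wild type cells that lay closer. Nt5e, the adenosine-producing enzyme CD73, differed by 3.33 ± 0.12, the calcineurin inhibitor gene Rcan2 by 3.37 ± 0.13 and Itgbl1, an integrin β-like gene, by 3.33 ± 0.19. Among genes below background on both wild type arrays the largest bounds were those of Wfdc1, a protease inhibitor gene, at least 26.3-fold higher, and of the neuropeptide gene Vip, at least 17.1-fold, followed by Ndrg3 (at least 9.14-fold), the corepressor gene Tle2 (8.96), Car11 (8.68), Enpp4 (8), Rpl22l1 (7.18) and Eid1 (6.74).

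Among genes detected on all 4 doxorubicin arrays the most negative difference was that of Fam180a, with 8.16 and 8.46 in staggerer cells and 12.27 and 12.31 in wild type cells (-3.98 ± 0.31, adjusted p = 2.56e-05). Mdk, the heparin-binding growth factor midkine, had 8.62 and 8.58 against 12.48 and 12.59 (-3.94 ± 0.11, adjusted p = 3.05e-06), and its difference in untreated cells was the larger (-4.71 ± 0.11, adjusted p = 1.89e-06). Hoxc6, a homeobox gene of trunk and limb position, had 10.22 and 10.48 against 13.85 and 13.83 (-3.49 ± 0.13, adjusted p = 4.99e-06). Of 22 tested Hox genes 7 were higher and 8 lower (31.8% and 36.4%, against 32.5% and 40.0% of all genes). Hoxa5 (-2.62 ± 0.17) and Hoxc9 (-2.50 ± 0.14) were lower and Hoxd8 (1.88 ± 0.13) higher. The membrane protein gene Tmem51 differed by -3.20 ± 0.11 (adjusted p = 4.99e-06), the heme transporter gene Flvcr2 by -3.18 ± 0.15 (adjusted p = 8.61e-06), the RNA-binding p53 target Rbm38 by -3.08 ± 0.19 (adjusted p = 1.24e-05) and the signal adaptor gene Traf4 by -3.07 ± 0.20 (adjusted p = 1.32e-05), with -3.80, -2.01 and -3.25 by other Traf4 probes. Cell junction and adhesion genes were among them, namely Nectin2 (-3.05 ± 0.14, -0.96 and -2.75 by other probes), F11r (-3.0 ± 0.23) and Itgb4 (-2.95 ± 0.21), as was the matrix gene Matn4 (-2.94 ± 0.21). Below background on both staggerer arrays, with the largest bounds, were Ankk1 (at least 10.7-fold lower), the potassium channel subunit gene Kcne1l (10.4), Pid1 (9.99), Sytl1 (7.31), the p53-induced repressor gene Hic1 (6.96), Nudt10 (6.96) and B3gnt8 (6.48), beside Oasl2. Another B3gnt8 probe gave a difference of -2.04, less than that bound. Ankk1, Kcne1l, Nudt10 and B3gnt8 were detected on the 2 wild type doxorubicin arrays only. They passed the filter through those arrays, so their direction is not free of the filter. Cited4, a transcriptional coactivator gene, was below background in untreated cells of both genotypes and had 10.13 and 9.61 in staggerer cells and 11.90 and 12.08 in wild type cells after doxorubicin (-2.12 ± 0.22, adjusted p = 8.59e-05).

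Receptor and pathway genes of growth control moved unevenly. Notch genes were lower in 10 of 13 cases and higher in 1, Adam17 (median -1.05 relative to all genes, -1.20 to -0.70 over the scalings). The Adam17 call was lost with no between-array normalization (0.01, adjusted p = 0.961). Of all genes 40.0% were lower and 32.5% higher. After doxorubicin 5 of the 13 Notch genes were detected in wild type cells but on neither staggerer array. Among the 7 detected on all 4 arrays 5 were lower and 1 higher, with a median difference of -1.0. Hey1, a Notch target, had 9.70 and 9.62 in staggerer cells and 11.59 and 11.48 in wild type cells (-1.88 ± 0.22, adjusted p = 0.000171) but was higher in untreated staggerer cells (1.69 ± 0.22, adjusted p = 0.00273). Notch1 was at least 3.78-fold lower and the ligand gene Jag2 at least 1.96-fold. Jag2 was detected on the 2 wild type doxorubicin arrays only, so it passed the filter through them. Egfr, the EGF receptor gene, had 8.89 and 9.03 against 11.33 and 11.49 (-2.45 ± 0.12, adjusted p = 8.83e-06), but its other probes gave 0.71 and 0.93, so its direction rests on the probe. The mean of its probes did not pass (-0.27, adjusted p = 0.0755). Pdgfc, a fibroblast mitogen gene, had 9.32 and 9.26 against 7.18 and 7.11 (2.14 ± 0.17, adjusted p = 2.81e-05), and Pdgfra, a receptor for it, was lower, at 6.55 and 7.19 against 9.20 and 9.24 with 1 of 2 staggerer arrays detected (-2.35 ± 0.20, adjusted p = 3.58e-05). In the TGF-β and BMP list 10 of 35 genes were higher and 16 lower (28.6% and 45.7%, against 32.5% and 40.0% of all genes). Smad4, the shared effector, had 10.41 and 10.40 against 12.34 and 12.20 (-1.86 ± 0.11, adjusted p = 1.17e-05), and Gdf10, a BMP family ligand, was higher, at 10.17 and 10.41 against 8.63 and 8.55 (1.70 ± 0.14, adjusted p = 2.82e-05). Wnt4, a ligand of the Wnt pathway, had 7.20 and 5.49 against 10.13 and 10.31 with 1 of 2 staggerer arrays detected (-3.87 ± 0.55, adjusted p = 0.000443), and another probe gave -2.64.

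Genes of DNA replication were split, with 16 higher and 15 lower of 40 (40% and 37.5%, against 32.5% and 40.0% of all genes). Top2a, the topoisomerase II isoform of dividing cells and a target of doxorubicin, had 9.48 and 9.28 in staggerer cells and 8.09 and 7.95 in wild type cells (1.36 ± 0.15, adjusted p = 0.000101). Without doxorubicin Top2a was lower in staggerer, at 9.97 and 10.27 against 10.94 and 10.92 (-0.81 ± 0.15, adjusted p = 0.0109), and the interaction was 2.17 ± 0.21 (adjusted p = 0.000225). With no between-array normalization the difference after doxorubicin was 0.34 and did not pass (adjusted p = 0.138). Mcm2, a subunit of the replicative helicase, had 9.66 and 9.71 against 7.63 and 7.64 (2.05 ± 0.11, adjusted p = 1.04e-05), thymidine kinase (Tk1) 10.12 and 9.98 against 7.84 and 8.15 (2.05 ± 0.15, adjusted p = 2.05e-05), and Rrm1 and Pold1 differed by 1.34 ± 0.11 and 1.67 ± 0.12. The interaction was called towards staggerer for 18 of the 40 genes and towards wild type for 5, against 26.6% and 32.6% of all genes. Mitotic genes were lower in 14 of 27 cases and higher in 6 (median -0.56 relative to all genes, -0.78 to -0.30 over the scalings). These are 51.9% and 22.2%, against 40.0% and 32.5% of all genes. In untreated cells the mitotic list had a median difference of -0.40, with 5 genes lower and 0 higher. Its interaction was called towards wild type in 8 cases and towards staggerer in 7, against 32.6% and 26.6% of all genes. Plk1, the mitotic kinase gene, had 9.21 and 9.75 against 11.24 and 11.29 (-1.79 ± 0.18, adjusted p = 7.31e-05), and Aurka, the spindle pole kinase gene, 9.75 and 10.05 against 11.47 and 11.32 (-1.50 ± 0.15, adjusted p = 7.35e-05). Cdkn2a, the gene of p16 and p19ARF, was higher in staggerer, at 12.70 and 12.64 against 9.98 and 9.82 (2.77 ± 0.14, adjusted p = 8.73e-06), as in untreated cells (1.64 ± 0.14, adjusted p = 0.000359), while the inhibitor gene Cdkn1c was lower (-2.0 ± 0.12) and so was Rb1, the retinoblastoma gene (-1.92 ± 0.15). Repair genes had 8 higher and 16 lower of 39 (20.5% and 41%, against 32.5% and 40.0% of all genes). The mismatch repair gene Msh6 had 9.88 and 10.23 against 12.72 and 12.76 (-2.68 ± 0.15, adjusted p = 9.48e-06).

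The transcription machinery itself was lower more often than higher. Of 57 genes of RNA polymerase II, its general factors and Mediator 32 were lower and 14 higher (median -0.50 relative to all genes, -0.66 to -0.31 over the scalings). That is 56.1% lower and 24.6% higher, against 40.0% and 32.5% of all genes. The elongation factor gene Ell had 8.69 and 8.58 in staggerer cells and 10.77 and 10.84 in wild type cells (-2.17 ± 0.12, adjusted p = 9.48e-06), while the Mediator gene Med16 had 11.07 and 11.13 against 8.52 and 8.75 (2.47 ± 0.13, adjusted p = 8.83e-06). Ribosome biogenesis and RNA polymerase I and III genes were lower in 35 of 58 cases and higher in 6 (median -0.50 relative to all genes, -0.62 to -0.32 over the scalings), with Polr1e lower (-1.74 ± 0.11) and Polr3a higher (1.91 ± 0.13). This list's shares were 60.3% lower and 10.3% higher, against 40.0% and 32.5% of all genes. Zinc finger genes of the Zfp series were lower in 88 of 142 cases and higher in 10. These are 62% and 7.04%, against 40.0% and 32.5% of all genes. Only 54 were detected on all 4 arrays, of which 37 were lower and 6 higher, with a median difference of -1.1. Another 59 were detected in wild type cells but on neither staggerer array after doxorubicin. Setting undetected genes at their bounds moved the list's median difference from -0.87 to -0.17. The all-gene median by fitted values was -0.14. Zfp623 had 7.69 and 7.68 against 9.88 and 9.87 (-2.19 ± 0.13, adjusted p = 1.08e-05) and Zfp64 8.75 and 9.15 against 11.23 and 11.19 (-2.26 ± 0.15, adjusted p = 1.44e-05). Of mitochondrial transcription genes, Polrmt, the mitochondrial RNA polymerase gene, had 9.53 and 9.76 against 12.13 and 12.24 (-2.54 ± 0.13, adjusted p = 8.83e-06), and Tefm, its elongation factor, was at least 2.38-fold lower.

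Nuclear-encoded respiratory genes were higher more often than lower. Of 72 oxidative phosphorylation subunit genes 34 were higher, 6 lower and 32 did not pass (median 0.48 relative to all genes, 0.38 to 1.11 over the scalings), against 34.2% higher and 34.7% lower in the fifth of genes with the highest signal. Atp5g2, an ATP synthase subunit gene, had 12.29 and 12.06 in staggerer cells and 10.17 and 10.51 in wild type cells (1.84 ± 0.17, adjusted p = 4.91e-05), and Ndufs8, of complex I, differed by 1.18 ± 0.13. Of 54 cytosolic ribosomal protein genes most, 41, did not pass, 13 were higher (24.1%) and 0 lower (median 0.29 relative to all genes, 0.23 to 1.16 over the scalings), so the share that was higher lay below the 32.5% of all genes and the 34.2% in the fifth of genes with the highest signal. Rpl22, 1 of those higher, had 12.40 and 12.47 against 10.54 and 10.66 (1.84 ± 0.12, adjusted p = 1.46e-05). Probes of this family can read its many pseudogenes. Mitochondrial ribosomal protein genes were lower in 29 (41.4%) and higher in 18 (25.7%) of 70 cases, against 40.0% and 32.5% of all genes.

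Lipid and stress metabolism held differences in both directions. Cholesterol and fatty acid synthesis genes were higher in 16 of 31 cases and lower in 7 (median 0.57 relative to all genes, 0.45 to 0.70 over the scalings). These are 51.6% and 22.6%, against 32.5% and 40.0% of all genes. Sc5d, a late enzyme of cholesterol synthesis, had 8.86 and 8.66 in staggerer cells and 6.54 and 6.75 in wild type cells (2.11 ± 0.13, adjusted p = 1.29e-05), but Hmgcs1 and Sqle, enzymes under sterol control, were lower, Hmgcs1 at 11.36 and 11.49 against 13.40 and 13.38 (-1.97 ± 0.11, adjusted p = 1.06e-05) and Sqle with a difference of -1.84 ± 0.16. Cyp27a1, the sterol 27-hydroxylase gene, had 9.53 and 9.86 against 11.94 and 12.09 (-2.32 ± 0.19, adjusted p = 3.26e-05), with untreated pairs of 6.96 and 6.84 in staggerer cells and 6.97 and 6.48 in wild type cells. NRF2 and antioxidant genes were higher in 17 of 34 cases and lower in 6 (median 0.50 relative to all genes, 0.41 to 0.99 over the scalings). That is 50% higher and 17.6% lower, against the same all-gene shares. Nqo1, a quinone reductase of the antioxidant response, had 11.30 and 11.15 against 8.66 and 8.67 (2.56 ± 0.12, adjusted p = 7.85e-06) and the extracellular superoxide dismutase gene Sod3 10.60 and 10.27 against 7.46 and 7.61 (2.90 ± 0.15, adjusted p = 8.83e-06), while Nfe2l2, the NRF2 gene, and the sulfiredoxin gene Srxn1 were lower, with differences of -2.22 ± 0.14 (1 of 2 staggerer arrays detected) and -1.77 ± 0.12. Cbr3, a carbonyl reductase of anthracyclines, was lower, at 10.61 and 10.44 against 12.43 and 12.29 (-1.83 ± 0.14, adjusted p = 2.61e-05). ATF4 and unfolded protein genes were split, with 12 higher and 14 lower of 31 (38.7% and 45.2%, against 32.5% and 40.0% of all genes). The proline synthesis gene Aldh18a1 had 11.24 and 10.99 against 8.53 and 8.83 (2.44 ± 0.16, adjusted p = 1.4e-05). The folate enzyme gene Mthfd2 had 9.41 and 9.33 against 7.10 and 7.02 (2.31 ± 0.12, adjusted p = 9.15e-06). Heat shock genes were split too (10 higher and 9 lower of 22, or 45.5% and 40.9%), with Dnajb1 lower (-2.28 ± 0.13) and Hsp90aa1 higher (1.83 ± 0.19).

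**Figure D5:**
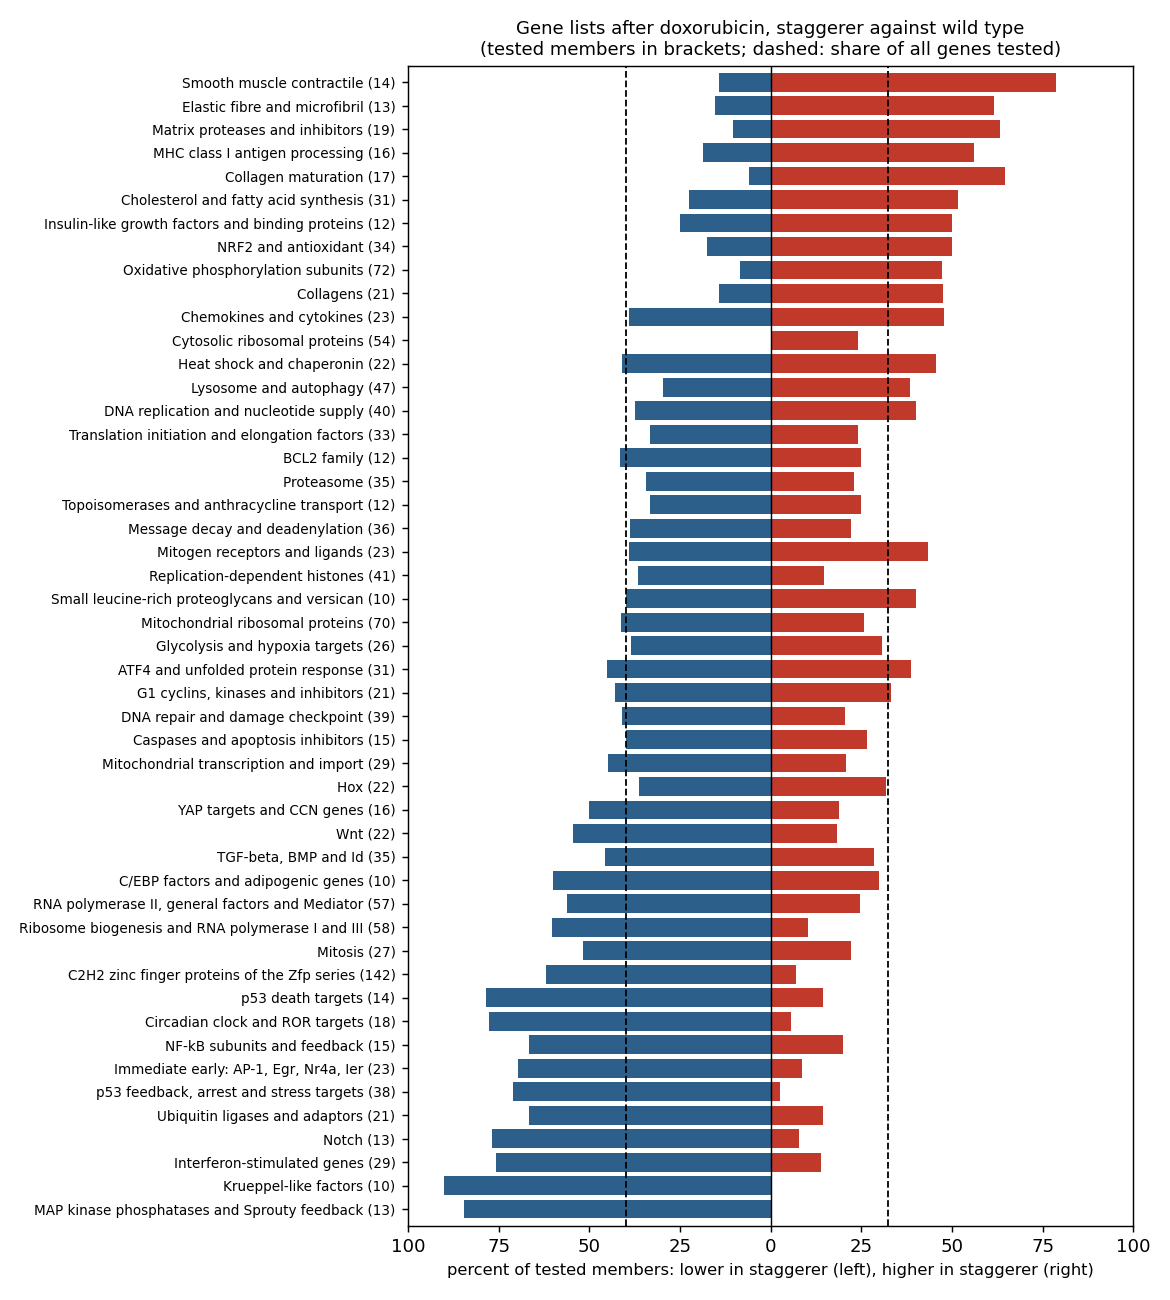
Percent of tested genes of each list that were lower (left of 0) or higher (right of 0) in staggerer than in wild type cells after doxorubicin, for lists of at least 10 tested genes, ordered by median; the number of tested genes is in brackets. Dashed lines mark the shares over all genes, 40.0% lower and 32.5% higher, which the p53, Krüppel-like factor and interferon lists pass on the left and the contractile and matrix lists on the right.

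The interaction sets the difference after doxorubicin against the untreated one. Of the 6776 genes called after doxorubicin 5212 (76.9%) also had the interaction called, against 59.2% of all genes, and 4570 of them were not called in untreated cells. Both tests use the 4 doxorubicin arrays, so these counts are not independent of each other. Cdkn1a had an interaction of -2.49 ± 0.19 (adjusted p = 0.000164), Mdm2 of -2.56 ± 0.20 (adjusted p = 0.000164), Mcl1 of -2.38 ± 0.19 (adjusted p = 0.000164) and Adamts5 of 3.03 ± 0.18 (adjusted p = 0.000138). By contrast the interactions of Igfbp2 (0.39 ± 0.17), Col10a1 (0.52 ± 0.28) and Rora (-0.23 ± 0.23) did not pass, and those of Ppbp and Mdk passed but were small beside their differences, at 0.76 ± 0.23 and 0.77 ± 0.16. For the p53 death targets the interaction was called towards wild type in 10 of 14 genes, for immediate early genes in 18 of 23 and for interferon-stimulated genes in 18 of 29, against 32.6% of all genes. It was called towards staggerer for 11 of 13 elastic fibre genes and 8 of 14 contractile genes, against 26.6% of all genes.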

How the data were processed

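Per the file headers and the values, the authors deposited linear intensity for 25697 probes and 1124 control rows, without detection p-values, and log2 values equal to quantile-normalized log2 intensity (largest difference 5.09e-09). Scanner software is not given in the sources used here. From the intensity, background was corrected against 1114 control rows taken as negative controls, 10 bright ones being left out (nec, offset 16, limma 3.58.1, R 4.3.3), followed by log2 and quantile normalization. A probe counted as detected at a detection p (the share of control rows as bright or brighter) under 0.01, and those detected on 2 or more arrays were tested (12362), so the dimmest genes are not covered. Some genes, such as Cebpa, Sfn and Has3, were detected on the 2 wild type doxorubicin arrays only. They passed through the group in which they are high, so their direction is not free of the filter. Symbols were updated through a RefSeq table (23962 of 23978 probes with 1 symbol). 23074 blank rows were dropped.

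Group means were fitted to all 8 arrays (lmFit, eBayes; 4 residual and 3.44 prior degrees of freedom), with two-sided tests and Benjamini-Hochberg adjustment over 9340 genes at 0.05. Bounds set the bright group's mean against, per array, the higher of the lowest detected signal and the gene's own. On simulated data 72% of changes of 1 and 94% of changes of 2 (log2; 100 genes each) were called, with 14 false calls among the unchanged genes. The simulation changed only these genes and did not copy the lower signal of the staggerer doxorubicin arrays. Its rates therefore may not hold for the real arrays. The 5 scalings were quantile normalization with and without background correction, median centring, no between-array normalization and cyclic loess. Other alternatives were the authors' table, other filters, probe means, variance settings, a replicate block, a minimum fold and leaving out each array.

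Named genes were the 15 largest differences each way among genes detected on all 4 arrays, the 8 largest bounds and 6 largest interactions each way, up to 6 genes per list by p, and a set of p53, clock and ROR genes. This gave 382, of which the text gives a part. Members and lists were chosen with earlier results of these data known. Another probe's value stands beside a gene if the 2 differ by over 1. Trp53 and Bax were not analysed here.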

Additional observations from a re-analysis of the deposited data

Results flagged for a closer look

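The genotype difference after doxorubicin differed from that in untreated cells, by the interaction test of limma, for 5526 of 9340 genes (59.2%). Over all genes 234 were called in both conditions in opposite directions. The largest interactions towards staggerer, among genes detected on all 8 arrays and called after doxorubicin, were those of Angptl7 (4.60 ± 0.27, adjusted p = 0.000138), Nfib (3.79 ± 0.24, adjusted p = 0.000149), Prss35 (3.53 ± 0.21, adjusted p = 0.000138), Rbms3 (3.40 ± 0.18, adjusted p = 0.000138), Rnu6 (3.36 ± 0.16, adjusted p = 0.000111) and Mfap5 (3.35 ± 0.18, adjusted p = 0.000138). Angptl7, a secreted angiopoietin-like protein gene, had 9.38 and 9.64 in staggerer cells and 6.37 and 6.84 in wild type cells after doxorubicin, but 7.78 and 7.85 against 9.37 and 9.65 without it, so the order of the genotypes turned. Prss35 turned likewise, at 10.26 and 10.19 in staggerer cells against 8.37 and 8.01 in wild type cells after doxorubicin, and 8.67 and 8.53 against 10.16 and 10.03 without it. Rnu6, listed under the name of the U6 small nuclear RNA, a transcript of RNA polymerase III, had 15.87 and 15.94 in staggerer cells after doxorubicin, against 12.61 and 12.65 in wild type cells, 12.36 and 12.42 in untreated staggerer cells and 12.43 and 12.50 in untreated wild type cells. Only the staggerer doxorubicin pair stood apart in it.

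The largest interactions towards wild type, again among genes detected on all 8 arrays and called after doxorubicin, were those of Hey1 (-3.57 ± 0.32, adjusted p = 0.000204), Btbd11 (-3.45 ± 0.16, adjusted p = 0.000111), Nudt22 (-3.44 ± 0.22, adjusted p = 0.000149), Slco4a1 (-3.13 ± 0.19, adjusted p = 0.000138), Ddit4l (-2.98 ± 0.16, adjusted p = 0.000138) and Acaa1b (-2.98 ± 0.17, adjusted p = 0.000138). Slco4a1, an organic anion transporter gene, had 9.15 and 9.39 in staggerer cells and 11.13 and 11.29 in wild type cells after doxorubicin, and 8.86 and 8.82 in staggerer cells and 7.70 and 7.60 in wild type cells without it. Ddit4l, a stress inhibitor of mTOR signalling, had 10.51 and 10.64 in staggerer cells and 13.25 and 13.23 in wild type cells after doxorubicin, and 10.59 and 10.62 in staggerer cells and 10.33 and 10.24 in wild type cells without it. The median signal of the staggerer doxorubicin arrays was 7.64 and 7.55, and its part in these interactions was not tested.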

How the results depend on the processing

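Counts of calls depended on the scaling and on the fold demanded. With no between-array normalization 1365 genes were higher in staggerer after doxorubicin and 2570 differed in untreated cells. A test against a fold of at least 1.5 (treat) left 1659 higher, 2352 lower, 2884 interactions and 255 untreated differences. Among genes detected on all 8 arrays, fewer of which were tested, 2461 were lower. Leaving out 1 array at a time gave 2657 to 3017 higher, 3343 to 3787 lower, 4726 to 5811 interactions and 521 to 1748 untreated differences. The untreated count fell most without 1 of the untreated arrays, to 521 and 546 without wild type array 1 and 2, and 573 and 551 without staggerer array 1 and 2. With no between-array normalization Arc (-0.66), Ikbkb (-0.66), Maff (-0.48), Ikbkg (-0.46), Wwp1 (-0.40), Zbp1 (-0.22), Ifit2 (-0.08) and Rnf6 (-0.05) turned to lower in staggerer, and with median centring Ccng1 turned to higher (0.74). Leaving out 1 doxorubicin array ended the calls of Nr1d2, Ccng1, Arc, Zbp1, Nfkbib, Ikbkb, Rnf6, Mmp17, Krt8 and Bcl2l13 among the genes named. The cause was not tested. With the replicate block 3012 genes were higher and 3708 lower. Deviations from the group mean had a correlation of -0.02 between same numbered staggerer and wild type doxorubicin arrays. Whether replicate numbers pair these arrays with the untreated ones was not examined. The restriction to the 4 doxorubicin arrays gives no interaction or untreated count. List medians relative to all genes kept their sign under every setting except for 13 lists, among them the BCL2, NF-κB, proteoglycan, Hox and histone lists. Signal over background limits the staggerer doxorubicin arrays, where 1244 genes detected on both wild type arrays were below it.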

Other observations

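Ubiquitin ligase and adaptor genes were lower in 14 of 21 cases and higher in 3, Nedd4, Wwp1 and Rnf6, named after their values were seen, of which Wwp1 and Rnf6 were lower with no between-array normalization, at -0.40 and -0.05 (median -1.04 relative to all genes, -1.04 to -0.50 over the scalings). Rnf6 also lost its call without any 1 of the 4 doxorubicin arrays (0.27 to 0.41, adjusted p-values from 0.0511 to 0.17). Rnf4, a SUMO-targeted ligase gene, had 8.98 and 8.77 in staggerer cells and 11.02 and 10.73 in wild type cells (-2.0 ± 0.16, adjusted p = 2.45e-05), and Fbxw7, which targets cyclin E and MYC, had 7.03 and 7.35 against 9.07 and 9.19 (-1.94 ± 0.14, adjusted p = 1.84e-05). Nedd4, a membrane receptor ligase gene, was higher, at 10.77 and 10.84 against 8.47 and 8.92 (2.11 ± 0.17, adjusted p = 3.09e-05). In this list 6 of the 21 genes were below background on both staggerer doxorubicin arrays. Setting undetected genes at their bounds moved the list's median difference from -1.18 to -0.66. The 14 genes detected on all 4 doxorubicin arrays had a median difference of -0.7, with 9 lower and 3 higher. The list's shares were 66.7% lower and 14.3% higher, where the full gene set had 40.0% and 32.5%.

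Lysosome and autophagy genes had 18 higher and 14 lower of 47 (38.3% and 29.8%, against 32.5% and 40.0% of all genes). Lysosomal hydrolase genes were among the higher ones, with Ctsz at 11.54 and 11.35 in staggerer cells and 9.53 and 9.37 in wild type cells (2.0 ± 0.14, adjusted p = 1.82e-05) and Neu1, the sialidase gene, at 11.85 and 12.09 against 10.57 and 10.56 (1.40 ± 0.12, adjusted p = 4.33e-05). The autophagy kinase gene Ulk1 was lower, at 9.43 and 9.21 against 10.93 and 10.90 (-1.59 ± 0.15, adjusted p = 5.55e-05). Replication-dependent histone genes had 6 higher and 15 lower of 41 after doxorubicin (14.6% and 36.6%, against 32.5% and 40.0% of all genes). Their median was -0.01 relative to all genes (-0.05 to 0.06 over the 5 scalings), and in untreated cells 18 were higher and 3 lower. Their interaction was called towards wild type in 25 cases and towards staggerer in 0, against 32.6% and 26.6% of all genes, and probes of this family can read several near-identical genes. The mitochondrial protein gene Chchd10 had 10.70 and 10.98 in staggerer cells and 13.43 and 13.47 in wild type cells after doxorubicin, and 6.89 and 6.98 in staggerer cells and 9.95 and 10.07 in wild type cells without it, so it was lower in staggerer in both conditions (-2.61 ± 0.13 and -3.07 ± 0.13).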
